A study of Homo sapiens with 23 samples.

Results

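Cytochrome P450 genes were taken as every gene in the TPM tables whose symbol is CYP followed by a family number, a subfamily letter and a gene number. The rule found 56 of 60564 genes listed, and all 56 were listed in each of the 23 libraries. It leaves out P450 pseudogenes with a P in the symbol, and the enzymes that carry other symbols, such as TBXAS1 and PTGIS, which are given separately. The libraries came from 2 established human cell lines, Caco-2 (colorectal adenocarcinoma, the gut cells of the model) and HepG2 (hepatocellular carcinoma, the liver cells), both grown in an integrated-gut-liver-on-a-chip platform. Each line was kept alone (mono-culture) or in a chip that joined both lines by circulating medium (co-culture), and for 1 day received either no fatty acids (control) or FFAs, a mixture of palmitic and oleic acid in the proportion 1 to 2 at 1 mM in total. The labels give DMEM with 0.5% FBS for this day, whereas the methods describe serum-free DMEM with 1% BSA after 12 h of starvation, with FFAs diluted from DMSO stocks. There were 3 libraries in each of the 8 groups except the Caco-2 co-culture control, which had 2. No allele or transgene distinguished the groups, and each line is a tumour-derived line rather than primary tissue.

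P450 enzymes are haem monooxygenases that insert an oxygen atom into lipophilic substrates. The microsomal members draw electrons from POR, sometimes with cytochrome b5, and the mitochondrial members from FDXR and ferredoxin. Hepatocytes use them to clear drugs, to turn cholesterol into bile acids and to hydroxylate fatty acids, and enterocytes use a smaller set, in which CYP3A members are prominent, on absorbed compounds. Ligand-activated factors control many of them, among them AHR for family 1, PXR (NR1I2) and CAR (NR1I3) for the drug-metabolizing families, FXR (NR1H4) with SHP (NR0B2) for bile acid synthesis, and PPARA for CYP4A genes.

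The lines were distinct by their markers. CDH17 ranged from 354 to 480 TPM in Caco-2 and from 0.05 to 2.75 TPM in HepG2, and CDX2 from 60.4 to 136 TPM against 0.02 to 0.73 TPM. ALB ranged from 20460 to 33859 TPM in HepG2 and was also present in Caco-2 at 321 to 769 TPM, whereas the enterocyte markers LGALS4, KRT20 and CDX1 were low in Caco-2, with medians of 5.05, 1.25 and 0 TPM. The summed 9 hepatocyte markers were between 59922 and 90941 TPM in HepG2 libraries and between 3752 and 5861 TPM in Caco-2 libraries, and the summed 8 enterocyte markers between 878 and 1186 TPM in Caco-2 and between 155 and 245 TPM in HepG2. As a share of the level in HepG2 mono-culture controls, 34 genes that mark HepG2 here reached 2.08% and 0.825% in the libraries numbered 1 of the Caco-2 co-culture groups with and without FFAs, and 0.0883% to 0.242% in the other Caco-2 libraries. The 63 genes that mark Caco-2 stood at 0.127% to 0.613% in HepG2 libraries. Libraries of one group correlated at 0.97 to 0.99 over log2(TPM + 1), so none was a copy of another. TPM keep no read counts, so depth is unknown and a value of 0 is described as listed at 0. In bulk RNA, fewer cells of a type and less RNA per cell cannot be told apart.

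The libraries numbered 3 stood apart for part of all genes, several P450 genes among them, in a way that the groups do not explain. Over HepG2 genes with a group mean of at least 1 TPM, the library numbered 3 was the lowest of its group in all 4 groups for 13.6% of genes and the highest in all 4 for 10.1%. Of the 26 P450 genes at that level in HepG2, CYP2D6, CYP2R1 and CYP7A1 were lowest in every library numbered 3, and CYP1A1, CYP20A1 and CYP2U1 highest. In Caco-2 the corresponding shares over the 3 groups that have a library numbered 3 were 7.81% lowest and 12.3% highest. Of 18 P450 genes there, CYP27A1, CYP2U1, CYP4V2 and CYP4X1 were lowest and CYP20A1 and CYP2R1 highest. The counts of 3 and 3 of 26, and of 4 and 2 of 18, are descriptions, and what the number stands for is not given in the sources used here. Without these libraries the line differences of CYP2D6 (1.15), CYP2R1 (-2.81), CYP27A1 (1.99), CYP4V2 (0.91) and CYP4X1 (-3.30) kept the calls given below (limma adjusted p = 0.00104 or less), and that of CYP20A1 was -0.03. For CYP1A1, CYP2U1 and CYP7A1 the values without them stand beside the results.

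The lines carried different and partly overlapping sets of P450 genes. A group mean of at least 1 TPM was reached by 30 of the 56 genes, 18 of them in Caco-2 and 26 in HepG2, with 14 in both, 4 in Caco-2 alone and 12 in HepG2 alone. Listed at 0 in all 23 libraries were CYP2A13, CYP2F1, CYP4F8, CYP4F22, CYP4Z1 and the pair CYP11B1 and CYP11B2, which make cortisol and aldosterone in the adrenal cortex. The remaining 19 were above 0 somewhere but under 1 TPM on average in every group, with 1.59 TPM (CYP2D7) as the highest single value. Among these were several main drug-metabolizing enzymes of adult liver, though not CYP2D6, CYP2C19 or CYP3A5. CYP3A4, which handles a large share of medicines, reached at most 0.44 TPM in HepG2 and 0.23 TPM in Caco-2, where it was listed at 0 in 9 of 11 libraries. CYP1A2 reached 0.40 TPM, CYP2B6 0.48 TPM and CYP2C8 0.88 TPM, and CYP2A6 was listed at 0 in all 12 HepG2 libraries. CYP4A11, the fatty acid ω-hydroxylase controlled by PPARA, was listed at 0 in all 12 HepG2 libraries and reached 0.19 TPM in Caco-2.

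At the other end, CYP51A1 (lanosterol demethylase of cholesterol synthesis), CYP27A1 (mitochondrial sterol 27-hydroxylase) and CYP1A1 (the AHR-inducible hydroxylase of polycyclic aromatic compounds) together made up 64.0% to 74.0% of the summed P450 TPM in Caco-2 and 76.7% to 80.0% in HepG2. The sum itself ranged from 477 to 723 TPM in Caco-2 (median 553) and from 628 to 1047 TPM in HepG2 (median 792). The sum was therefore led by the sterol enzymes and CYP1A1 and not by the drug-metabolizing families.

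**Figure D1:**
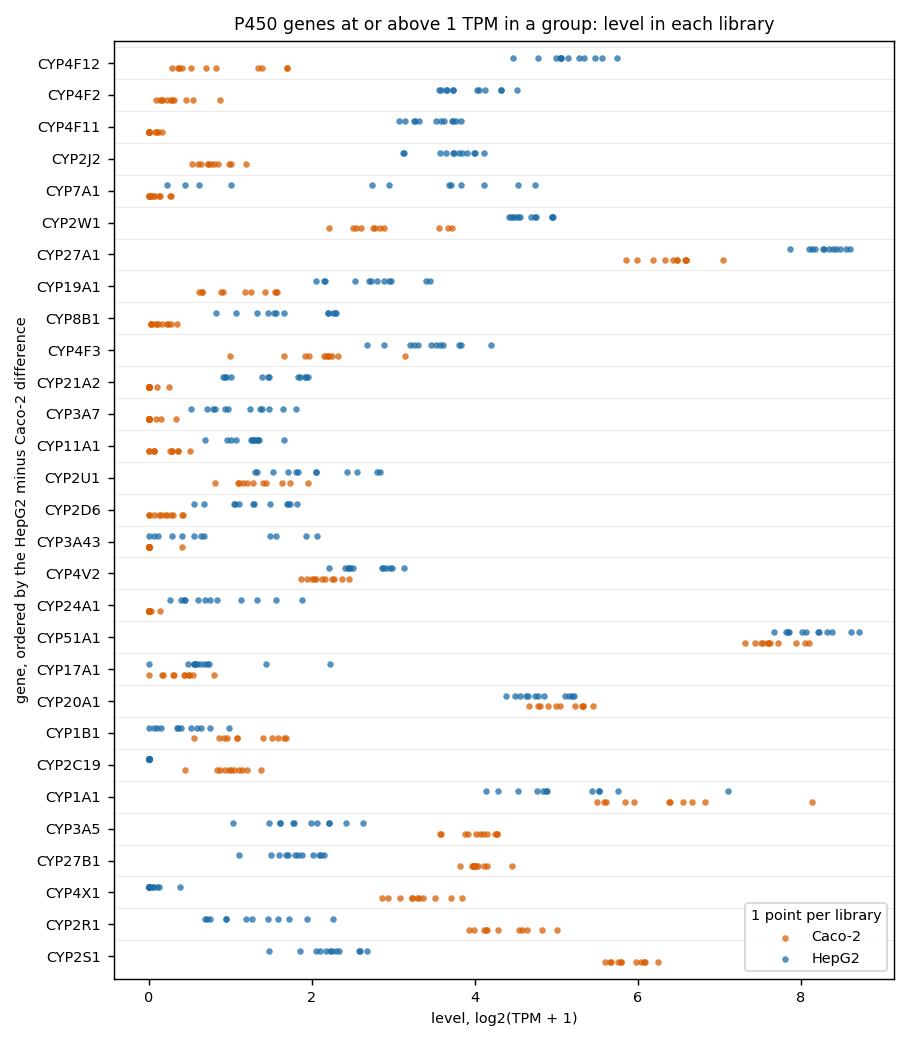
Level of 29 P450 genes with a group mean of at least 1 TPM, on the horizontal axis as log2(TPM + 1), with 1 point per library (11 Caco-2 libraries in orange, 12 HepG2 libraries in blue) and genes ordered by the difference between the lines. CYP4F12, CYP4F2 and CYP4F11 at the top and CYP4X1, CYP2R1 and CYP2S1 at the bottom form separate clouds by line, while CYP20A1 and CYP51A1 overlap, and CYP7A1 in HepG2 splits into 4 low and 8 high libraries.

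The first comparison was between the lines in mono-culture without FFAs, with 3 libraries each. It was tested with limma on log2(TPM + 1) over 16495 genes, and differences below are HepG2 minus Caco-2 on that scale, which understates the change of low genes. P450 genes were called different at an adjusted p under 0.05 in 24 of 30 cases, where 62.4% of all genes tested were called. Of the 30, 16 were higher in HepG2, against 23.4% of all genes, and 8 were higher in Caco-2, against 39.0%. Of the same 30, 12 passed the filter of 1 TPM only through HepG2 and 4 only through Caco-2. The filter thus partly set the direction of those genes, and the counts by direction are descriptions. The median difference over the 30 was 0.96, against -0.20 over all genes. That overall shift was -0.04 after median-of-ratios scaling and 0.00 after quantile normalization, when 18 P450 genes were called higher and 7 lower with either scaling. Over all genes the split of calls was 3857 higher and 6429 lower, and 5002 and 5185 after quantile normalization. The test has no pairing of the lines, and the p-values measure the spread between libraries, which the labels do not tie to separate cultures, although the methods state at least 2 independent experiments.

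**Figure D2:**
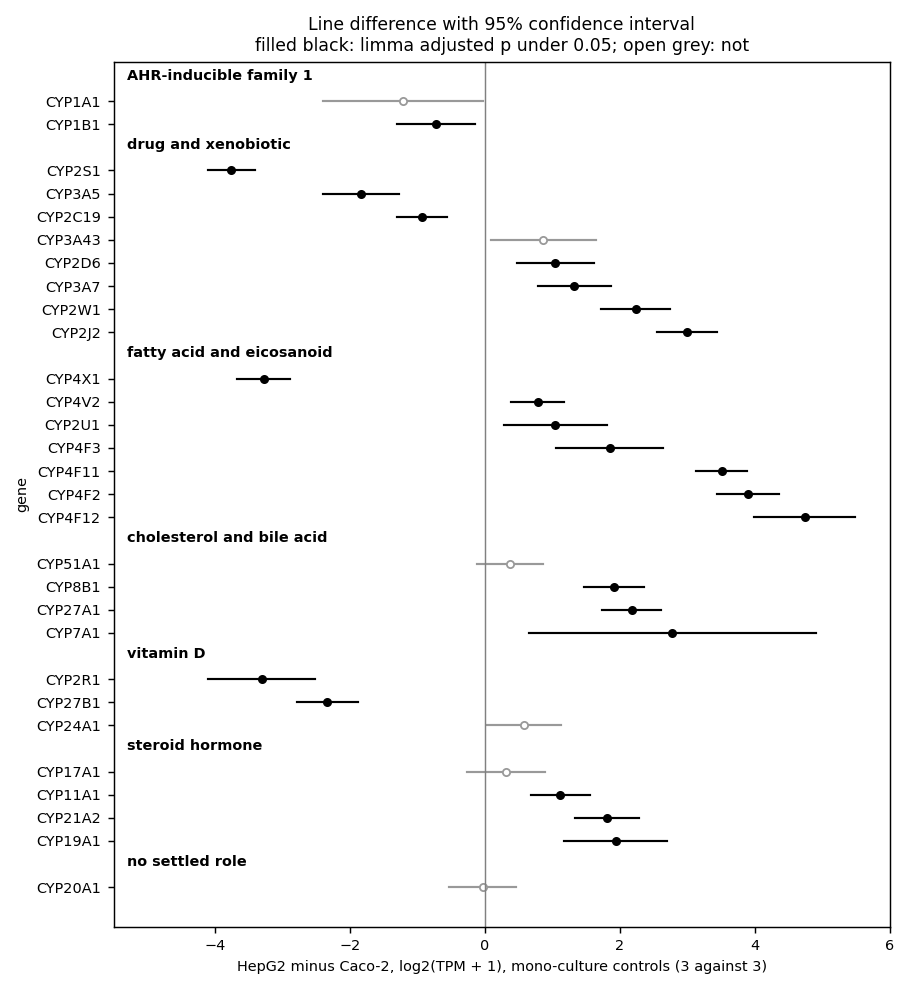
Difference between the lines in mono-culture controls for 29 P450 genes tested, grouped by role, as HepG2 minus Caco-2 in log2(TPM + 1) with its 95% confidence interval from limma (3 libraries against 3). Filled points mark the 23 of them with an adjusted p under 0.05, 16 of which lie to the right of 0, and the interval of CYP7A1 is the widest.

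Among the fatty acid and eicosanoid enzymes, 6 of 7 tested were higher in HepG2 and 1 was higher in Caco-2. CYP4F genes encode ω-hydroxylases that act on leukotriene B4, arachidonic acid, long-chain fatty acids and vitamin K. CYP4F12 was at 43.3, 52.5 and 32.3 TPM in HepG2 controls and at 1.61, 0.32 and 0.21 TPM in Caco-2 controls, a difference of 4.74 (SE 0.36, limma adjusted p = 8.18e-10). CYP4F2 was at 16.3, 21.9 and 11.6 TPM against 0.10, 0.22 and 0.12 TPM, a difference of 3.90 (SE 0.22, adjusted p = 8.87e-12). CYP4F11 was at 11.3, 12.6 and 8.97 TPM against 0.08, 0.05 and 0 TPM, a difference of 3.51 (SE 0.18, adjusted p = 2.23e-12). For these 3 genes every HepG2 library, in either culture and with or without FFAs, lay above every Caco-2 library. CYP4F3 was less unequal, at 11.1, 17.4 and 8.16 TPM against 3.72, 3.62 and 0.99 TPM (difference 1.85, SE 0.38, adjusted p = 0.000290). CYP4F2 and CYP4F3 are partly identical: 12.3% of 50-base windows of CYP4F2 transcripts and 8.64% of those of CYP4F3 also occur in transcripts of another gene, so reads could be divided between them.

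The 6 CYP4F members lie together on chromosome 19 between 15508525 and 15934867 (GRCh38, GENCODE v44). In that stretch CYP4F3, CYP4F12, CYP4F2 and CYP4F11 were the 4 called higher in HepG2, and CYP4F22 and CYP4F8 were listed at 0 throughout. The CYP4 cluster on chromosome 1 (46757838 to 47149727) behaved otherwise. Of its 5 members only CYP4X1 reached 1 TPM, and only in Caco-2, at 8.79, 9.25 and 8.37 TPM in controls against 0.03, 0 and 0 TPM in HepG2 (difference -3.28, SE 0.19, adjusted p = 9.32e-12). CYP4X1 is an orphan enzyme known to oxidize anandamide. Its neighbours CYP4A11, CYP4A22, CYP4B1 and CYP4Z1 stayed under 1 TPM on average in every group of both lines.

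The promoters of 3 CYP4F genes, which were higher in HepG2, and of CYP4X1, which was higher in Caco-2, are shown as those of family 4 members with opposite line differences. Each runs 5′ to 3′ from 250 bases before to 50 bases after the RefSeq start on GRCh38.p14, and capitals mark matches, on either strand, to the AHR-ARNT core GCGTG, the nuclear receptor hexamer AGGTCA or the TATA box TATAAA.
CYP4F2 (chr19:15898025-15898324, minus strand): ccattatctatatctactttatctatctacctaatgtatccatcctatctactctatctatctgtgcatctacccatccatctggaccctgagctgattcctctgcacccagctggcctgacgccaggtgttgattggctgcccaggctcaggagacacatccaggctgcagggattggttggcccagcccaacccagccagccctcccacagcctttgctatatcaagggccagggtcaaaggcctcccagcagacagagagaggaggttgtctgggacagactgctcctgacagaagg
CYP4F3 (chr19:15641062-15641361, plus strand): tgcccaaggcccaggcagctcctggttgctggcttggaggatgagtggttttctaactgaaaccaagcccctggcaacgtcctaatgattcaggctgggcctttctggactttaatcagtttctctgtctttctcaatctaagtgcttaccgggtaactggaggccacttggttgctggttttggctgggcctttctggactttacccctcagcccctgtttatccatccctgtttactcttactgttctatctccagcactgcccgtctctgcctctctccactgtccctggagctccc
CYP4F11 (chr19:15934818-15935117, minus strand): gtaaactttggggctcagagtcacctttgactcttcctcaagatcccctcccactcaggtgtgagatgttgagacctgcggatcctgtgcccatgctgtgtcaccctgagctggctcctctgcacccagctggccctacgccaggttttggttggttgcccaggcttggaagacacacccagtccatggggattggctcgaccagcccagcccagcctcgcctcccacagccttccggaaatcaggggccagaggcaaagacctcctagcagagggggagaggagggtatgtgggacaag
CYP4X1 (chr1:47023419-47023718, plus strand): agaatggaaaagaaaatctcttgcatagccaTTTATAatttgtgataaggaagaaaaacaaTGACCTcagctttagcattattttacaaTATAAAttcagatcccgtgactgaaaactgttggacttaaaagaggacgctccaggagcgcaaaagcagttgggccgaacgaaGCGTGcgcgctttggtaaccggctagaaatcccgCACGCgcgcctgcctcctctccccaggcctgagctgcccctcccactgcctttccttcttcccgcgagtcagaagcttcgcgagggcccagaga
None of these letters occur in the 3 CYP4F windows. CYP4X1 has TATAAA matches whose first bases are at -219 and -161 relative to the start, AGGTCA at -189 and GCGTG at -78 and -44. In a global alignment the CYP4F2 and CYP4F11 windows were 68.1% identical, while CYP4F3 was 50.4% identical to CYP4F2 and 51.4% identical to CYP4X1. Over 35116 RefSeq promoters of this length, 36.54% hold GCGTG, 13.83% AGGTCA and 11.53% TATAAA. Among the 39 P450 genes with a RefSeq promoter, the shares were 30.77%, 33.33% and 38.46%. The longer HNF4 core CAAAGTCCA was found in 6 of 39, 15.38% against 0.38% of all promoters. The 6 were CYP2A13, CYP2A6, CYP2A7, CYP2B6, CYP2C8 and CYP2R1. CYP2R1 was called higher in Caco-2, and the others were under 1 TPM on average in every group. In the CYP2A genes the core lay at the same distance from the start, so these matches may not be independent. A match is a description of the letters and not a binding site. CYP4F12 was not among the 39.

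The other 2 fatty acid enzymes called were modestly higher in HepG2. CYP4V2, a fatty acid hydroxylase whose loss causes Bietti crystalline dystrophy, was at 6.28, 7.74 and 4.27 TPM in HepG2 against 3.35, 3.14 and 2.65 TPM (difference 0.78, SE 0.19, limma adjusted p = 0.00130). CYP2U1, which hydroxylates long-chain fatty acids, was at 3.14, 1.87 and 5.95 TPM against 1.41, 1.22 and 0.75 TPM (difference 1.05, SE 0.37, adjusted p = 0.0184). The highest of the HepG2 values and the lowest of the Caco-2 values of CYP2U1 were libraries numbered 3. Its difference was 0.91 without Caco-2 library 3 (adjusted p = 0.0684), 0.71 without HepG2 library 3 (adjusted p = 0.119) and 0.58 without all libraries numbered 3 (adjusted p = 0.0697), so the call ended in each case. Exons of the antisense gene CYP2U1-AS1 overlap it, and a kit that does not mark strand cannot separate them.

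Of the drug and xenobiotic families, 9 members were tested, 4 of them higher in HepG2 and 4 in Caco-2. CYP2S1, an extrahepatic enzyme that metabolizes retinoids and prostaglandins, was at 75.1, 64.4 and 61.6 TPM in Caco-2 controls and at 5.02, 3.91 and 3.29 TPM in HepG2 controls, a difference of -3.75 (SE 0.17, limma adjusted p = 2.93e-13). It was the most abundant member of families 2 and 3 in Caco-2. CYP3A5, a member of its family also found outside the liver, was at 18.3, 15.6 and 10.9 TPM against 4.33, 3.60 and 2.43 TPM (difference -1.83, SE 0.27, adjusted p = 7.57e-06). CYP3A7, the fetal liver member, was listed at 0 in all 3 Caco-2 controls and at 1.35, 1.62 and 1.56 TPM in HepG2 (adjusted p = 0.000166). So the CYP3A cluster on chromosome 7 (99648194 to 99866093) was represented by CYP3A5 in Caco-2, and in HepG2 by CYP3A5, CYP3A7 and CYP3A43, with CYP3A4 under 1 TPM in both. CYP3A7 shares 41.9% of its transcript windows with other genes, chiefly the readthrough gene CYP3A7-CYP3A51P. CYP3A43 was at 2.81, 0.59 and 0.32 TPM against 0.32, 0 and 0 TPM, and did not pass the test (adjusted p = 0.0508).

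CYP2J2, the epoxygenase of arachidonic acid, was at 16.2, 14.9 and 13 TPM in HepG2 controls against 1.28, 1.01 and 0.65 TPM in Caco-2 (difference 3.00, SE 0.21, limma adjusted p = 3.66e-10). CYP2W1, which is known from fetal gut and colorectal tumours, was at 25.5, 29.9 and 21.4 TPM in HepG2 and at 5.70, 4.67 and 3.63 TPM in Caco-2 (difference 2.24, SE 0.25, adjusted p = 1.74e-07). CYP2W1 thus had its higher level in the liver line. CYP2D6, a polymorphic drug oxidase, was at 1.44, 2.32 and 1.06 TPM against 0.33, 0.23 and 0.16 TPM (difference 1.05, SE 0.27, adjusted p = 0.00254), but 51.4% of its transcript windows also occur in other genes, mostly CYP2D7. CYP2C19, which oxidizes proton pump inhibitors and other drugs, was at 1.14, 0.78 and 0.83 TPM in Caco-2 controls and was listed at 0 in all 12 HepG2 libraries (adjusted p = 0.000124). Its level was near 1 TPM in Caco-2, and 24.0% of its transcript windows also occur in other genes, mostly a gene without a symbol.

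The CYP2S1 promoter is shown as that of the member with the strongest lean to Caco-2, with capitals as above.
CYP2S1 (chr19:41192969-41193268, plus strand): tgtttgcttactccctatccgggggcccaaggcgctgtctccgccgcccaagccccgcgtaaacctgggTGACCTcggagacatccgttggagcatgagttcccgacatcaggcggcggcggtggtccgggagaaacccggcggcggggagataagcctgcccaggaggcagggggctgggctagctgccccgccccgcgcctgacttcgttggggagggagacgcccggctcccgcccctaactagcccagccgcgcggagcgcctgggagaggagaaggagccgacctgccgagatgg
It holds 1 AGGTCA match, at -181 relative to the start, and no GCGTG or TATAAA. CYP2S1 lies at the end of a cluster on chromosome 19 (40843541 to 41207539) whose other 5 members, CYP2A6, CYP2A7, CYP2A13, CYP2B6 and CYP2F1, were under 1 TPM on average in every group.

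In family 1, CYP1A1 was abundant in both lines. It was at 47.1, 100.4 and 112 TPM in Caco-2 and at 27.4, 28.2 and 52.7 TPM in HepG2, and the ranges overlapped. Its difference of -1.21 (SE 0.57) did not pass the test (limma adjusted p = 0.0701), and without the libraries numbered 3 it was -1.28 (adjusted p = 0.0125). CYP1B1, an extrahepatic relative that oxidizes oestradiol, was at 1.12, 0.94 and 2.00 TPM in Caco-2 against 0.28, 0.27 and 0.68 TPM (difference -0.73, SE 0.28, adjusted p = 0.0293), and lost the call with a pseudocount of 0.1, without a filter and after both scalings. It also lost it without Caco-2 library 3 (-0.54, adjusted p = 0.137), without HepG2 library 1 (-0.66, adjusted p = 0.0827) or 2 (-0.66, adjusted p = 0.0844), and without all libraries numbered 3 (-0.67, adjusted p = 0.0615). AHR itself was at 33.8 ± 0.0665 TPM in Caco-2 and 36.0 ± 5.48 TPM in HepG2 (mean ± SD, n = 3), a difference of 0.08 (SE 0.23). CYP1A2, the immediate neighbour of CYP1A1 on chromosome 15, stayed at or under 0.40 TPM. The CYP1A1 promoter is shown because the gene was high in every library.
CYP1A1 (chr15:74725479-74725778, minus strand): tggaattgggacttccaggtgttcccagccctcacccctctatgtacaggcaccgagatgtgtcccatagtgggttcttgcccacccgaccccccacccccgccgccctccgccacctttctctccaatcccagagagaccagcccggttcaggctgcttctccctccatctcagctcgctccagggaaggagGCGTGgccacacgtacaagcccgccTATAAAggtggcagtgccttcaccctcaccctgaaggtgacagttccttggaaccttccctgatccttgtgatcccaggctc
Its capitals mark a GCGTG core at -57 and a TATAAA at -32 relative to the start.

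All 4 cholesterol and bile acid genes tested had positive differences, and 3 passed. CYP27A1, which opens the alternative bile acid pathway, was at 343, 388 and 334 TPM in HepG2 controls against 94.0, 87.8 and 56.7 TPM in Caco-2 (difference 2.18, SE 0.21, limma adjusted p = 2.37e-08). CYP8B1, the sterol 12α-hydroxylase that sets the share of cholic acid, was at 3.86, 3.89 and 1.89 TPM against 0.05, 0.20 and 0.02 TPM (difference 1.91, SE 0.21, adjusted p = 2.22e-07). CYP7A1, the rate-limiting enzyme of the classical pathway, was at 11.9, 16.2 and 0.53 TPM in HepG2 against 0.03, 0.02 and 0 TPM in Caco-2. The third HepG2 library was far below the other 2 and still above all 3 Caco-2 controls. The difference of CYP7A1 was 2.78 (SE 1.01, adjusted p = 0.0231), and 3.86 without the libraries numbered 3 (adjusted p = 7.41e-07). It did not pass without HepG2 control library 1 (2.34, adjusted p = 0.0880) or 2 (2.13, adjusted p = 0.110), nor without Caco-2 library 3 (2.77, adjusted p = 0.0504). CYP51A1 was similar in both lines, at 319, 390 and 202 TPM in HepG2 and 273, 265 and 158 TPM in Caco-2 (difference 0.38, 95% interval -0.11 to 0.87, adjusted p = 0.169). CYP51A1 shares 67.5% of its transcript windows with other annotated genes, mostly a pair of genes without a symbol, so its value may be divided. CYP7B1, CYP39A1 and CYP46A1, the other oxysterol hydroxylases, were under 1 TPM on average everywhere.

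Of 3 vitamin D enzymes tested, 2 were higher in Caco-2, and CYP24A1 did not pass the test. CYP2R1, the 25-hydroxylase usually placed in liver, was at 16.6, 16.7 and 31.1 TPM in Caco-2 controls and at 0.92, 2.30 and 0.63 TPM in HepG2 (difference -3.31, SE 0.38, limma adjusted p = 2.93e-07). CYP27B1, the 1α-hydroxylase that makes the active hormone, was at 20.9, 14.7 and 16.7 TPM against 2.03, 3.41 and 2.56 TPM (difference -2.33, SE 0.22, adjusted p = 1.94e-08). Every Caco-2 library lay above every HepG2 library for both genes. CYP24A1, the catabolic 24-hydroxylase that VDR induces, was at 0 to 0.10 TPM in Caco-2 and at 0.31, 0.19 and 1.18 TPM in HepG2 controls (adjusted p = 0.0604). VDR was at 15.5 ± 3.54 TPM in Caco-2 and 0.277 ± 0.177 TPM in HepG2 (mean ± SD, n = 3) (difference -3.67, SE 0.19, adjusted p = 1.64e-12).

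Of the steroid hormone enzymes, 3 of 4 tested were higher in HepG2. CYP19A1, aromatase, was at 6.85, 9.52 and 3.44 TPM in HepG2 controls against 1.26, 0.57 and 0.84 TPM (difference 1.94, SE 0.36, limma adjusted p = 0.000128). CYP11A1, which cleaves the cholesterol side chain, was at 1.55, 1.51 and 1.01 TPM against 0, 0.04 and 0.21 TPM (difference 1.12, SE 0.21, adjusted p = 0.000115). CYP21A2, steroid 21-hydroxylase, was at 2.76, 2.85 and 2.54 TPM against 0, 0 and 0.18 TPM (difference 1.81, SE 0.23, adjusted p = 1.05e-06). Its value is uncertain, since 34.1% of its windows are shared, mostly with the pseudogene CYP21A1P and a gene without a symbol, and exons of TNXB (1.36 to 3.98 TPM in HepG2) overlap it on the other strand. CYP17A1 was at 0.67, 0.48 and 0.64 TPM against 0.40, 0.12 and 0.34 TPM (adjusted p = 0.336). Of the retinoid enzymes, CYP26A1, CYP26B1, CYP26C1 and CYP27C1 were all under 1 TPM on average in every group. CYP20A1, an orphan member, was nearly equal between the lines, at 24.0, 27.7 and 35.3 TPM in HepG2 and 28.7, 24.2 and 36.3 TPM in Caco-2, with a difference of -0.03 (95% interval -0.53 to 0.47).

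The partners and regulators of P450 enzymes were counted from lists of known genes, in the same contrast of mono-culture controls. Of all genes tested there, 62.4% were called, 23.4% as higher in HepG2 and 39.0% as higher in Caco-2, so the counts are descriptions. Of 9 redox and haem supply genes, 4 were higher in HepG2 (FDXR, POR, CYB5R3 and CYB5A) and 4 were higher in Caco-2 (FDX1, ALAS1, FDX2 and PGRMC1). POR, the electron donor of microsomal P450s, was at 582 ± 54.9 TPM in HepG2 and 279 ± 9.33 TPM in Caco-2 (difference 1.05, SE 0.18, limma adjusted p = 3.39e-05). Of 12 regulators tested, NR0B2 (5.17), NR1H4 (5.06), NR1I2 (3.58) and PPARA (0.68) were called higher in HepG2, and VDR (-3.67), NR5A2 (-1.68) and ARNT (-0.68) in Caco-2. HNF4A, AHR, RXRA, SREBF2 and NR1I3 did not pass. PXR (NR1I2) was at 19.1 ± 7.57 TPM in HepG2 controls. There CYP3A4, CYP2B6 and CYP2C8 were under 1 TPM, and CYP3A5 (4.33, 3.60 and 2.43 TPM) and CYP3A7 (1.35, 1.62 and 1.56 TPM) were above it. A link of PXR to these levels was not tested. Of the P450 enzymes with other symbols, TBXAS1 was higher in HepG2 (difference 0.85, adjusted p = 0.0231) and PTGIS, prostacyclin synthase, in Caco-2 (-2.04, adjusted p = 5.27e-08).

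No P450 gene passed the adjusted test for FFAs, whichever line or culture was taken. In Caco-2, limma over 15081 genes called 0 of 18 P450 genes in mono-culture (0% of all genes), 0 in co-culture (0.0199%) and 0 averaged over both cultures (0%). At an unadjusted p under 0.05 the counts were also 0, where 2.61%, 2.83% and 3.99% of all genes passed. In HepG2, with 14255 genes tested, 0 of 26 were called in mono-culture, co-culture or on average (0% of all genes each), and at an unadjusted p under 0.05 there were 2, 0 and 0, where 2.24%, 1.84% and 3.49% of all genes passed. The 2 were CYP21A2 and CYP2S1 in mono-culture. No call was made by the same test for the 9 redox partners, the 11 regulators tested in each line or the enzymes with other symbols.

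The 95% intervals of the FFA estimates are per gene and not adjusted. They do not give the size of effect that the adjusted test could have called. Averaged over both cultures, the 95% intervals of P450 genes had a median width of 0.40 on each side in Caco-2 and 0.44 in HepG2. The estimates ran from -0.32 (CYP1B1) to 0.58 (CYP1A1) in Caco-2, where 13 of 18 were positive, and from -0.38 (CYP21A2) to 0.50 (CYP17A1) in HepG2, where 12 of 26 were positive. The smallest p in Caco-2 belonged to CYP2W1, at 5.05, 4.83 and 10.8 TPM with FFAs and 5.70, 4.67 and 3.63 TPM without in mono-culture, and 11.7, 12.2 and 6.13 TPM against 5.84 and 6.40 TPM in co-culture. The groups of CYP2W1 overlapped in both cultures, with a difference of 0.50 (SE 0.23, limma adjusted p = 0.990). In HepG2 it belonged to CYP17A1, the 17α-hydroxylase of steroid synthesis, whose averaged difference of 0.50 (SE 0.25, limma adjusted p = 1.00) came from 0.46, 1.71 and 3.67 TPM with FFAs and 0.67, 0.48 and 0.64 TPM without in mono-culture. In co-culture CYP17A1 was at 0.60, 0.54 and 0.47 TPM with FFAs and at 0, 0.39 and 0.50 TPM without.

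Single FFA contrasts were led by 4 genes, none of them past the adjusted test. In HepG2 mono-culture CYP21A2 was at 0.87, 0.93 and 1.76 TPM with FFAs and 2.76, 2.85 and 2.54 TPM without (difference -0.79, SE 0.30, limma adjusted p = 1.00). In HepG2 co-culture CYP4V2 was at 6.51, 6.89 and 4.50 TPM against 4.47, 3.61 and 4.44 TPM (0.42, SE 0.23, limma adjusted p = 1.00). In Caco-2 mono-culture CYP1A1 was at 82.3, 83.1 and 280.3 TPM against 47.1, 100.4 and 112 TPM (0.61, SE 0.44, limma adjusted p = 1.00), and the estimate was 0.26 without the libraries numbered 3. In Caco-2 co-culture CYP1B1 was at 0.46, 1.64 and 0.89 TPM against 2.16 and 1.84 TPM (-0.63, SE 0.33, limma adjusted p = 1.00). CYP1A1 in HepG2 mono-culture with FFAs was at 42.1, 22.1 and 135.9 TPM, again highest in the library numbered 3, against 27.4, 28.2 and 52.7 TPM (0.54, and 0.13 without the libraries numbered 3). CYP2E1, the ethanol- and fatty acid-oxidizing enzyme associated with fatty liver, was at 0.58, 0.54 and 0.10 TPM with FFAs and 0.17, 0.12 and 0.04 TPM without in HepG2 mono-culture, too low for the test.

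Co-culture also gave no P450 call in the fits per line without a replicate block. Over all genes, an unadjusted limma p under 0.05 was more frequent for the averaged co-culture contrast than for the averaged FFA contrast. The shares were 10.5% against 3.99% in Caco-2 and 12.5% against 3.49% in HepG2, so this contrast with FFAs is not particular to P450 genes. In Caco-2, 0 of 18 were called by limma without FFAs (0.0199% of all genes), with FFAs (0%) or averaged over both treatments (0%). Unadjusted p under 0.05 was reached by 1, 1 and 2 genes, where 5.43%, 6.09% and 10.5% of all genes passed. In HepG2, 0 of 26 were called without FFAs (0%), with FFAs (0%) or on average (0.0561%), and 1, 4 and 7 genes had an unadjusted p under 0.05, where 7.53%, 5.63% and 12.5% of all genes passed. The 7 on average were CYP8B1, CYP2W1, CYP27A1, CYP3A43, CYP3A5 and CYP17A1, all lower in co-culture, and CYP24A1, higher. The estimates were negative for 21 of 26 P450 genes in HepG2, with a median of -0.23 against -0.02 over all genes, and positive for 14 of 18 in Caco-2, with a median of 0.14 against 0.03. By role in HepG2, negative estimates were given by all 4 cholesterol and bile acid genes, 6 of 7 drug genes, 5 of 6 fatty acid genes, 3 of 4 steroid genes and 1 of 3 vitamin D genes. The share of negative estimates over all genes was not counted. All these signs come from the same libraries, so the genes are not independent and the counts are descriptions.

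**Figure D3:**
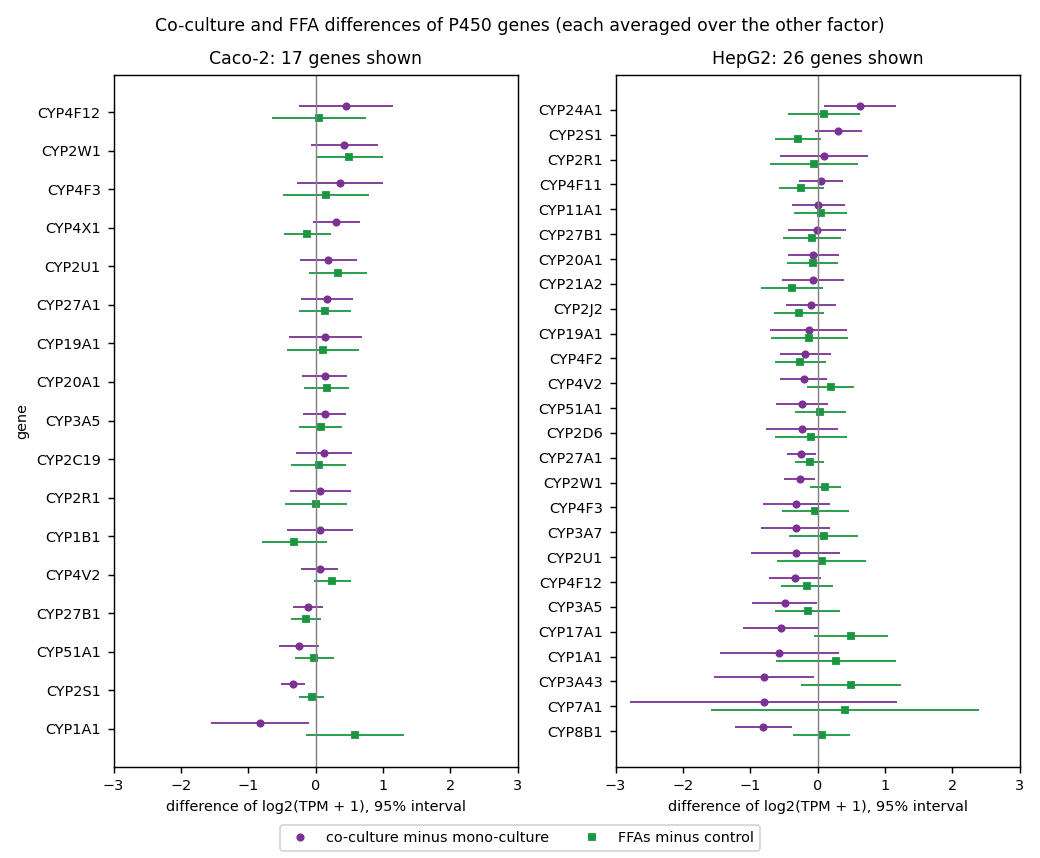
Differences of log2(TPM + 1) for P450 genes tested in Caco-2 (17, left) and HepG2 (26, right), with 95% confidence intervals from limma. Purple circles are co-culture minus mono-culture averaged over both treatments and green squares FFAs minus control averaged over both cultures; every green interval includes 0, the purple ones do not for CYP2S1 and CYP1A1 in Caco-2 and for 7 genes in HepG2, CYP8B1 with the lowest estimate among them, and no gene passed the adjusted test.

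CYP8B1 had the smallest p of the HepG2 co-culture contrasts. It was at 3.86, 3.89 and 1.89 TPM in mono-culture controls and 3.57, 3.79 and 3.58 TPM in mono-culture with FFAs, and at 2.15, 1.95 and 0.77 TPM in co-culture controls and 1.76, 1.5 and 1.09 TPM in co-culture with FFAs. With FFAs the cultures did not overlap, and without FFAs the mono-culture library numbered 3 lay within the co-culture range. The difference was -0.81 averaged over both treatments (SE 0.19, 95% interval -1.23 to -0.39, limma adjusted p = 0.132), -0.69 without FFAs (adjusted p = 0.646) and -0.93 with FFAs (adjusted p = 0.821). Without the libraries numbered 3 the averaged value was -0.76 (adjusted p = 0.114). The averaged difference passed with all 23 libraries in one fit (limma adjusted p = 0.0224) and with a replicate block (limma adjusted p = 0.0220). The labels do not say that the replicate numbers pair the samples. Exons of ACKR2 on the opposite strand overlap CYP8B1, and ACKR2 stood at 0.39 to 1.99 TPM in HepG2 and 0.42 to 2.06 TPM in Caco-2. The Caco-2 marker genes reached 0.613% in a co-culture HepG2 library, and CYP8B1 itself was at most 0.27 TPM in Caco-2.

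The other bile acid genes of HepG2 differed less clearly. CYP27A1 was at 343, 388 and 334 TPM and 273, 374 and 354 TPM in mono-culture without and with FFAs, and at 324, 308 and 281 TPM and 232, 311 and 288 TPM in co-culture. The co-culture values were lower in each treatment on average but overlapped with FFAs, and the averaged difference was -0.24 (SE 0.10, limma adjusted p = 0.334). CYP7A1 was at 11.9, 16.2 and 0.53 TPM and 25.6, 22.0 and 1.01 TPM in mono-culture, and at 5.68, 11.98 and 0.16 TPM and 13.2, 6.70 and 0.36 TPM in co-culture. Its averaged difference was -0.80 (SE 0.91, adjusted p = 0.766), and -0.96 without the libraries numbered 3 (limma adjusted p = 0.177). NR0B2, the corepressor of CYP7A1 and CYP8B1, gave -0.43 (limma adjusted p = 0.770) and NR1H4 0.33 (limma adjusted p = 0.528). CYP24A1 was the leading gene on the other side, at 0.31, 0.19 and 1.18 TPM and 0.35, 0.52 and 0.36 TPM in mono-culture and 0.78, 0.61 and 1.95 TPM and 0.68, 2.68 and 1.5 TPM in co-culture (0.63, SE 0.25, adjusted p = 0.319).

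CYP2S1 led in Caco-2. It was at 75.1, 64.4 and 61.6 TPM in mono-culture controls and 66.4, 66.9 and 54.2 TPM in mono-culture with FFAs, against 52.9 and 49.6 TPM in co-culture controls and 47.4, 54.2 and 49.9 TPM in co-culture with FFAs. All 5 co-culture libraries lay below all 6 of mono-culture, though at the closest by 54.17 against 54.22 TPM. The averaged difference was -0.34 (SE 0.08, 95% interval -0.52 to -0.15, limma adjusted p = 0.308), -0.38 without FFAs (adjusted p = 0.867) and -0.30 with FFAs (adjusted p = 0.814). CYP1A1 came next in Caco-2, at 44.3 and 47.9 TPM and 92.6, 56.4 and 60.9 TPM in co-culture without and with FFAs, with an averaged difference of -0.83 (SE 0.33, limma adjusted p = 0.435) that was -0.38 without the libraries numbered 3. The HepG2-high CYP4F12 had the highest positive estimate in Caco-2, 0.45 (SE 0.32, adjusted p = 0.649). Its co-culture values of 2.23, 0.28, 2.24, 1.53 and 0.43 TPM overlapped the 0.21 to 1.61 TPM of mono-culture, and the values of 2.23 and 2.24 TPM were in the libraries with 0.825% and 2.08% of the HepG2 marker level. The part of those markers in the result was not tested.

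**Figure D4:**
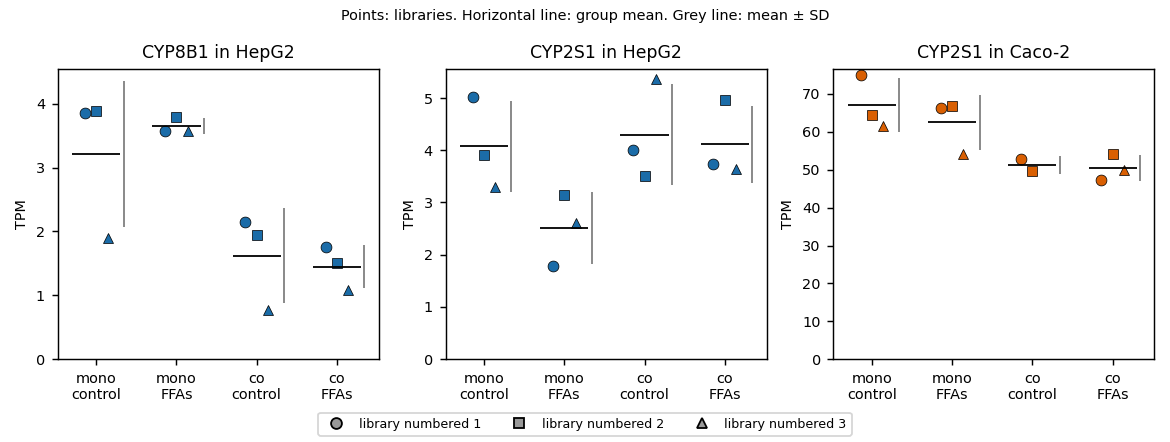
TPM of CYP8B1 in HepG2 (left) and CYP2S1 in HepG2 (middle) and Caco-2 (right) in each library, by group, with the group mean as a horizontal line and mean ± SD as a grey line beside it (n = 3, and n = 2 for Caco-2 co-culture control). CYP8B1 lies between 0.77 and 2.15 TPM in co-culture and between 1.89 and 3.89 TPM in mono-culture; marker shapes give the replicate number of the labels.

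The interaction of FFAs and co-culture asked whether the FFA difference changed with culture. limma called 0 of 18 P450 genes in Caco-2 (0% of all genes) and 0 of 26 in HepG2 (0%), and 0 in each at an unadjusted p under 0.05, where 1.94% and 1.16% of all genes passed. The smallest p values were those of CYP1B1 in Caco-2 (-0.62, SE 0.44, limma adjusted p = 1.00) and CYP21A2 in HepG2 (0.82, SE 0.42, limma adjusted p = 1.00). The 95% intervals reached 0.81 and 0.89 on each side of the estimate in the median.

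The selection used by the study was also applied to P450 genes, that is a one-way analysis of variance over the 4 groups of a line at an unadjusted p under 0.05 with a minimum difference between group means. In Caco-2 it took 1 of 49 P450 genes listed above 0, CYP2S1, where 3.08% of all genes were taken. In HepG2 it took 2 of 44, CYP8B1 and CYP2E1, where 3.56% of all genes were taken. After Benjamini-Hochberg adjustment it took 0 in either line. CYP2S1 was no longer taken in Caco-2 when co-culture control library 2 was left out, where CYP4X1 was taken instead, when co-culture FFA library 1 was left out, where 0 were taken, or when co-culture FFA library 3 was left out, where CYP2U1 was taken. In HepG2, CYP8B1 was taken whichever library was left out, and CYP2E1 was taken only without mono-culture control library 1 or mono-culture FFA library 3. CYP2E1 was at or under 0.58 TPM in every library.

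CYP7A1 and CYP1A1 show how far the libraries numbered 3 departed. In HepG2, CYP7A1 was at 0.16 to 1.01 TPM in the 4 libraries numbered 3 and at 5.68 to 25.6 TPM in the 8 others, and the replicate number accounted for 96.0% of its sum of squares within groups. The median over all HepG2 genes tested was 44.3%. CYP2U1 (98.5%) and CYP20A1 (92.3%) were as strongly tied to the number, with CYP20A1 at 33.2 to 36.2 TPM in libraries numbered 3 and 19.8 to 27.7 TPM in the others, whereas CYP2S1 (5.30%) and CYP3A5 (6.27%) were not. CYP1A1 in HepG2 was highest in the library numbered 3 of every group, at 44.9 to 135.9 TPM against 16.5 to 42.1 TPM. In Caco-2 the highest shares were those of CYP27A1 (86.1%), CYP19A1 (85.4%) and CYP2R1 (83.9%), against a median of 36.7% over all genes. CYP2R1 went in opposite directions in the lines, highest in Caco-2 and lowest in HepG2 libraries numbered 3.

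**Figure D5:**
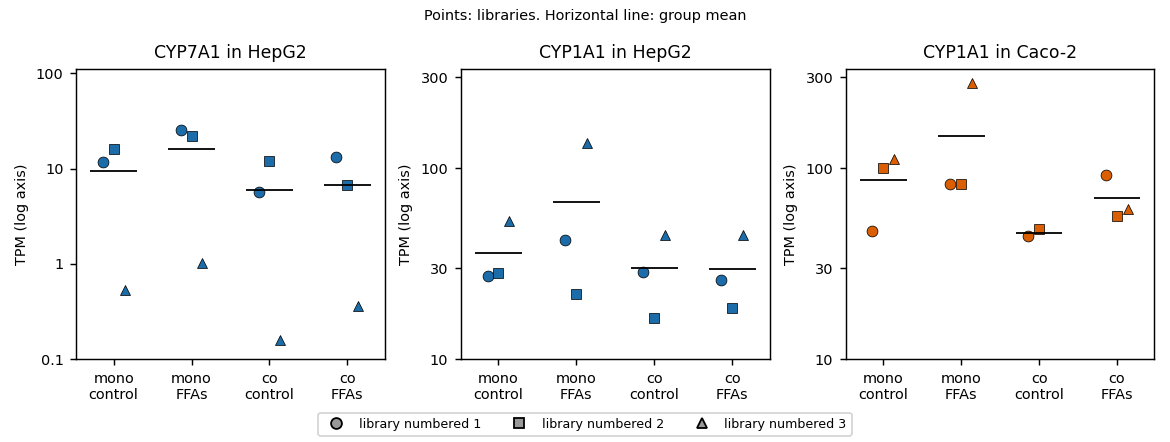
TPM on a log axis of CYP7A1 in HepG2 (left), CYP1A1 in HepG2 (middle) and CYP1A1 in Caco-2 (right), by group, with marker shapes for the replicate number and a horizontal line at each group mean. The triangles of the libraries numbered 3 lie lowest of their group for CYP7A1 and highest for CYP1A1 in HepG2, in all 4 groups.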

How the data were processed

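Libraries were made from 50 ng of total RNA with the SMART-Seq v4 kit, which does not mark strand. Besides the overlaps given with the results, exons on the opposite strand overlap CYP1B1, CYP11A1, CYP17A1, CYP19A1, CYP20A1, CYP2C19, CYP2E1 and CYP51A1, among others. TPM were computed and deposited by the authors, 1 table for each of the 23 libraries. The submitters' processing notes name Bowtie2 2.1.0, STAR 2.7.1a, RSEM 1.3.0 and GRCh38, and the study's methods name Ensembl 98. TPM hold no counts, so count tests were not used, precision rests on the number of libraries, and a gene that shares sequence with others may have its reads divided.

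Groups were taken from the sample labels. limma 3.58.1 (R 4.3.3, two-sided, eBayes with trend) was run on log2(TPM + 1) after dropping every gene whose group means all lay under 1 TPM. FFAs, co-culture and their interaction were contrasts of a fit per line, and the line difference was a contrast of a fit of all 23 libraries. p-values were adjusted by Benjamini-Hochberg over all genes tested, with a threshold of 0.05. The study's selection was a one-way analysis of variance at an unadjusted threshold of 0.05 that also required group means to differ by 0.263 or more in log2. The scripts were tested on simulated data. The genes, role lists and partner lists were chosen with earlier results of these data known. P450 genes that reached a group mean of 1 TPM were named by role, the others by their low level or where the selection of the study took them. A line was marked by genes with 50 TPM or more in all its mono-culture controls that stayed within 1 TPM in every such control of the other line. Exons, gene positions and transcript windows of 50 bases came from GENCODE v44 (GRCh38), and promoters from RefSeq (GRCh38.p14), which matched 39 of 56 symbols. Alternatives were another pseudocount, no filter, other scalings, no trend, other sample sets, a replicate block and leaving out libraries. Libraries after longer treatment were not analysed here, and 1 P450 gene that enters the counts is not reported by name or shown in the figures. Figures were drawn with matplotlib 3.10.9 under Python 3.11.15.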

Additional observations from a re-analysis of the deposited data

Results flagged for a closer look

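CYP2S1 had differences of opposite sign in the 2 lines between co-culture and mono-culture with FFAs. The gene was picked because of this pattern, and how many of all genes share the pattern was not counted. In HepG2 it was at 3.73, 4.97 and 3.64 TPM in co-culture and 1.78, 3.14 and 2.60 TPM in mono-culture, a difference of 0.55 on the log2(TPM + 1) scale. In Caco-2 it was at 47.4, 54.2 and 49.9 TPM and 66.4, 66.9 and 54.2 TPM, a difference of -0.30. The gap between the lines was 0.85, and this difference between the lines was not tested. The summed 63 genes that mark Caco-2 stood at 0.613%, 0.282% and 0.542% of their Caco-2 level in these HepG2 co-culture libraries and at 0.228%, 0.242% and 0.172% in the mono-culture ones, and the part of those markers in the result was not tested. Without FFAs the HepG2 values of CYP2S1 overlapped, at 4.01, 3.5 and 5.37 TPM in co-culture and 5.02, 3.91 and 3.29 TPM in mono-culture.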

How the results depend on the processing

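For the line difference, 21 to 29 P450 genes were called under the alternatives, with 29 when all 4 groups of each line entered and 21 to 26 when 1 library was left out. CYP1B1, CYP7A1 and CYP2U1 lost the call under some settings, the other 21 genes kept it wherever they were tested, and no sign reversed. FFAs, the interaction and the co-culture contrasts other than the HepG2 average gave 0 calls under every alternative. For that average, 1 gene, CYP8B1 (difference -0.81), was called with all 23 libraries in one fit (adjusted p = 0.0224) and with the replicate block (adjusted p = 0.0220), and 0 under the others, where the smallest adjusted p of a P450 gene ran from 0.0731 to 0.324. Over all genes that contrast had 8 calls of 14255, 492 with the block, and 122 of 16495 with all libraries in one fit. The labels do not say that the numbers pair the samples. Deviations of same-numbered libraries correlated at -0.09 to 0.31 in Caco-2 and 0.03 to 0.60 in HepG2, and 7 of 11 and 10 of 12 libraries correlated best with their own number. Under the study's criteria Caco-2 gave 1 P450 gene, 0 after adjustment, 3 with the replicate block, 0 to 3 when 1 library was left out and 4 without the libraries numbered 3, an alternative chosen after seeing the data. HepG2 gave 2, 0 after adjustment, 3 with the replicate block, 1 with a minimum of 1 TPM and 1 to 4 when 1 library was left out. At a limit of 0.1 TPM no HepG2 marker gene was left, so that check gave no value, and 7 Caco-2 markers reached 0.623% in HepG2 libraries. The causes were not tested. TPM give no depth, so what low levels could have shown is unknown.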
